A study of Mus musculus with 20 samples.

Results

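The 10 mice that ate the 2 diets richest in resistant starch were compared with the 10 mice that ate little or none. The high starch pool held the 5 mice on 5% RPS and the 5 mice on 10% RPS, and the low starch pool held the 5 mice on 0% RPS and the 5 mice on 2% RPS. Together they were all 20 mice of the series examined here, and each mouse entered its pool only by the percentage of starch in its label. All were C57BL/6 mice that had eaten the Total Western Diet (TWD), a purified rodent diet built on American survey intakes, for 6 weeks from weaning at 3 to 4 weeks of age, and then the TWD with 0, 2, 5, or 10% RPS for a further 3 weeks. RPS is uncooked potato starch. Every group, the 0% RPS mice included, had the same history on the TWD. Poly(A) RNA of cecum tissue was sequenced and the reads counted on each gene. Whole tissue was used, so fewer cells of a type and less RNA per cell cannot be told apart. The labels did not say which mice shared a cage or litter, so the p-values measure only the spread between these mice. Mice are numbered from 1 to 5 within each diet.

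The cecum is the chamber where much of the starch that escapes the small intestine is fermented by bacteria into short-chain fatty acids, and its epithelium absorbs these acids and burns butyrate in preference to glucose. Oxygen is scarce at the luminal surface, and genes induced by hypoxia-inducible factor (HIF) are active there in the normal tissue. The wall beneath the epithelium holds lymphoid tissue, fibroblasts, and smooth muscle, and all of these contribute to the RNA of a whole tissue sample.

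The genes downregulated in the high starch pool included the hypoxia-induced genes Stc1, Slc2a1, and Ndrg1, the lipid genes Creb3l3 and Dgat2, the retinol carrier Rbp2, and the tight junction gene Cldn4. The upregulated genes were the smooth muscle actin gene Actg2, the collagen gene Col12a1, Ly75, Cytip, and Camk2n1. Of 14900 genes tested with edgeR's quasi-likelihood test, 19 (0.128%) passed a Benjamini-Hochberg adjusted p of 0.05 with a fold change of at least 1.5. Of these, 5 (0.0336%) were higher and 14 (0.094%) were lower with 5 or 10% RPS. Without the fold change threshold 32 genes (0.215%) passed, 8 (0.0537%) higher and 24 (0.161%) lower. The adjusted p-values of the 32 genes lay between 0.0383 and 0.0461, close to the threshold. DESeq2's Wald test, run as an alternative on 18533 genes, called 95 (0.513%) higher and 87 (0.469%) lower. Below, a gene passed where it passed in edgeR, and DESeq2 calls are named as such. At an unadjusted p under 0.05 there were 2298 genes (15.4%), 1131 higher and 1167 lower. The median log2 fold change of all tested genes was 0.00. In 0 of the 14900 genes (0%) did the pools fail to overlap.

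**Figure D1:**
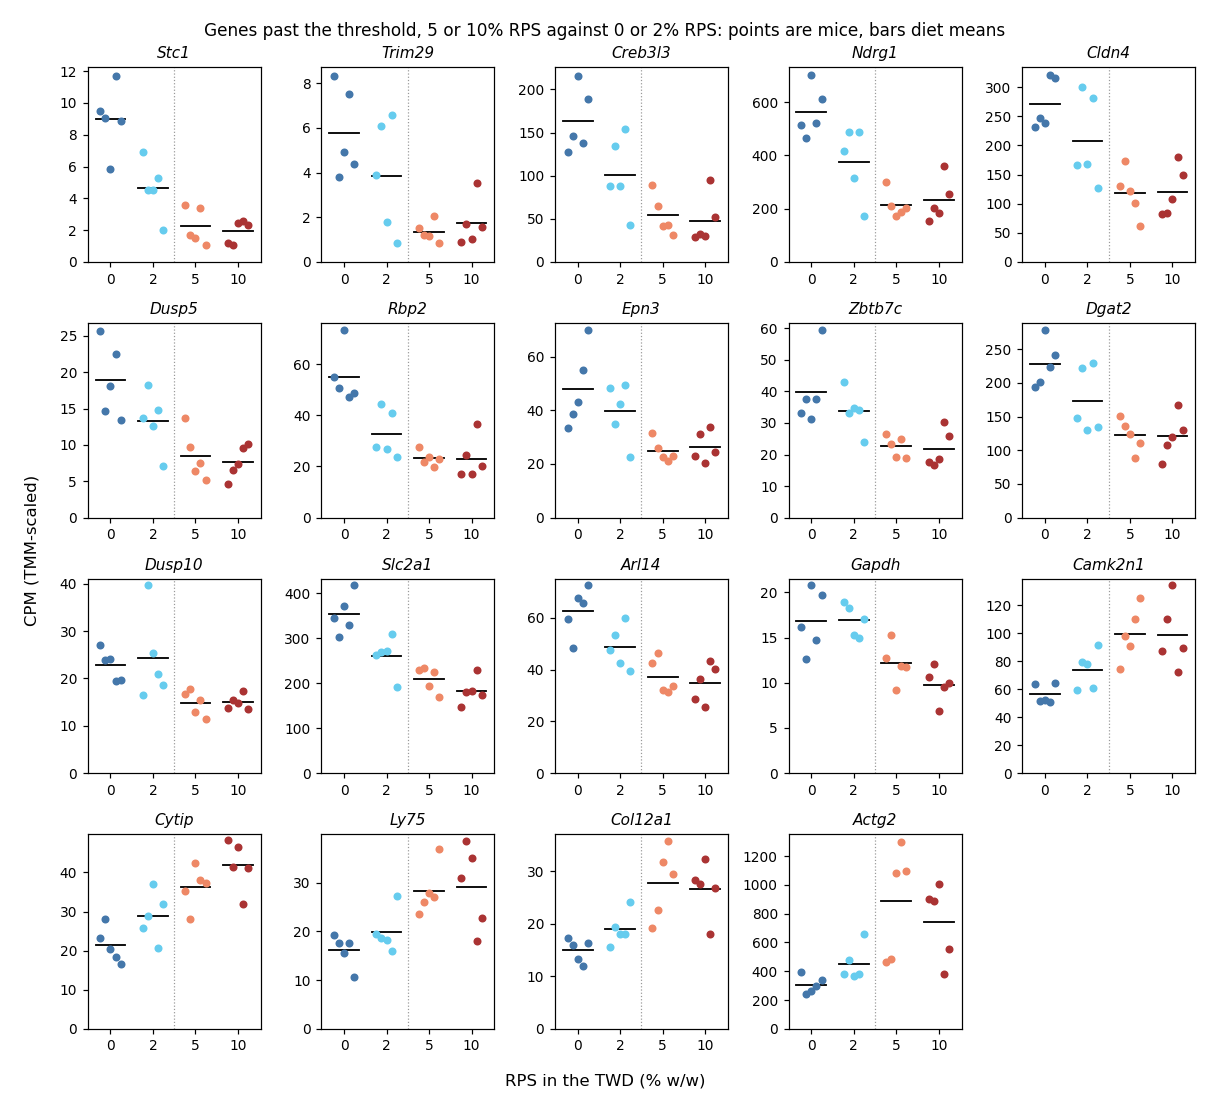
Level of each of the 19 genes past the threshold in every mouse, as CPM (counts scaled to library size by TMM, y axis, each panel with its own scale from 0) by percentage of RPS in the TWD (x axis), with a dotted line between the pools. Diet means (bars) of Stc1 were 8.99, 4.66, 2.25, and 1.92 CPM from 0 to 10% RPS, and those of Actg2 were 307, 452, 885, and 745 CPM.

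The number of genes called depended on single mice. When 1 mouse was left out at a time, 12 of the 20 fits called 0 genes, with the smallest adjusted p between 0.0505 and 0.0918, and the other fits called 0 to 107 genes higher and 6 to 75 genes lower. Leaving out any of the 5 mice on 0% RPS ended all calls, as did leaving out mouse 4 on 2% RPS, mouse 3 or 5 on 5% RPS, or mouse 1, 2, 3, or 5 on 10% RPS. The genes called higher and lower rose to 107 and 69 when mouse 3 on 2% RPS was dropped, and to 84 and 75 for mouse 5 of the same diet. They rose to 51 and 53 for mouse 4 on 10% RPS, and to 34 and 41 for mouse 1 on 5% RPS. With mouse 4 on 5% RPS out they were 13 and 24, and with mouse 2 of that diet out 11 and 16. With mouse 2 on 2% RPS out they were 4 and 6, and with mouse 1 of that diet out 0 and 10. All 19 genes kept their direction in each of these fits, and each was called in 5 to 8 of the 20.

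**Figure D2:**
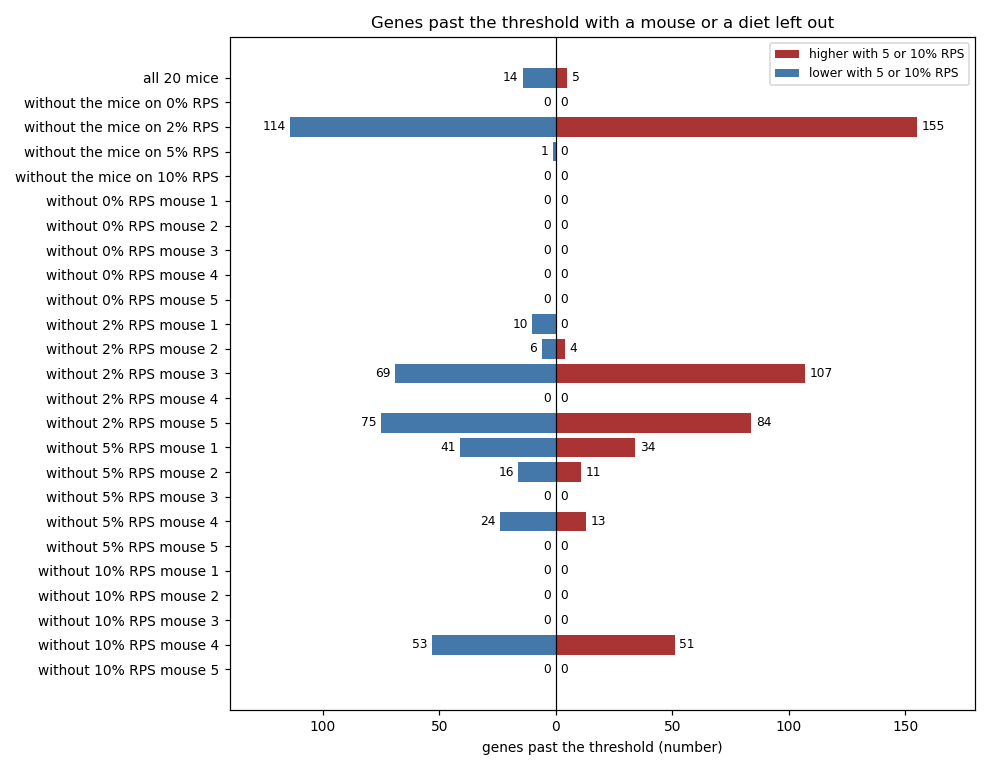
Number of genes past the threshold (x axis, higher to the right and lower to the left) with all mice and with each diet or each mouse left out in turn (y axis). With all 20 mice there were 5 genes higher and 14 lower, without the mice on 0% RPS there were 0, and without the mice on 2% RPS there were 155 and 114.

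The hypoxia-induced genes Stc1, Slc2a1, and Ndrg1 decreased. Stc1 encodes stanniocalcin 1, a secreted glycoprotein induced by HIF, and lies on GRCm39 at chr14:69266575-69279253. It was at 2.02 to 11.7 CPM (median 6.38) in the low starch pool and at 1.06 to 3.56 CPM (median 2.01) in the high starch pool. All low starch mice but mouse 5 on 2% RPS, at 2.02 CPM, lay above every high starch mouse. Stc1 was 3.25-fold lower with 5 or 10% RPS (log2 fold change -1.70 ± 0.28 (SE), adjusted p = 0.0383).

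Slc2a1 (chr4:118965908-118996365) encodes GLUT1, a glucose transporter of the basolateral membrane and of many other cells. Its level was 192 to 418 CPM (median 306) in the low starch pool and 148 to 235 CPM (median 188) in the high starch pool. Again only mouse 5 on 2% RPS, at 192 CPM, fell within the range of the high starch mice. The log2 fold change was -0.64 ± 0.11 (adjusted p = 0.0383). Ndrg1 (chr15:66801166-66841835), a gene induced by hypoxia and by differentiation, was at 174 to 702.5 CPM (median 487) with low starch and at 156 to 359 CPM (median 202) with high starch. Its pools overlapped in mouse 5 on 2% RPS, at 174 CPM, and mouse 4 on 10% RPS, at 359 CPM, among others, and its log2 fold change was -1.08 ± 0.19 (adjusted p = 0.0383).

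The list of stanniocalcin and hypoxia target genes had 26 tested members, of which 3 passed the threshold, all lower, against 0.094% of all tested genes, and DESeq2 called the same 3, against 0.469%. At an unadjusted p under 0.05 it held 11 lower members and 0 higher, where 7.83% and 7.59% of all genes were lower and higher. Its median log2 fold change was -0.18, and 23 members had a negative sign. The list was chosen with earlier results of these data known. It holds Stc1, the gene with the smallest p, so these counts are a description and carry no test. Pfkfb4, an enzyme that sets the level of a glycolysis activator, had an adjusted p of 0.0387 at a fold change under 1.5 (log2 fold change -0.56 ± 0.11). Hif1a, the oxygen-regulated subunit of HIF, did not pass (-0.48 ± 0.12, adjusted p = 0.0711), nor did the glycolytic genes Pgk1 (-0.27 ± 0.08, adjusted p = 0.0995) and Aldoa (-0.21 ± 0.08, adjusted p = 0.183). The summed level of the list was 4141 to 5856 CPM in the low starch mice and 3736 to 4807 CPM in the high starch mice. Gapdh, another glycolytic gene, was called lower (-0.61 ± 0.12, adjusted p = 0.0383), at 12.6 to 20.8 CPM against 6.87 to 15.3 CPM. Gapdh has many near-identical copies in the genome, and how reads shared with them were counted is not given in the sources used here, so its level is uncertain.

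The promoters of Slc2a1, Dusp5, and Creb3l3 are shown because these genes decreased and carry the core letters of a hypoxia element just before their start. They come from RefSeq on build GRCm38.p6 and hold 250 bases before the transcription start and 50 after it. Capitals mark ACGTG or its reverse complement CACGT, the core of the element that HIF binds, a motif chosen after the values had been seen. The windows are chr4:119108495-119108794 (plus strand) for Slc2a1, chr19:53528895-53529194 (plus strand) for Dusp5, and chr10:81092542-81092841 (minus strand) for Creb3l3.
Slc2a1: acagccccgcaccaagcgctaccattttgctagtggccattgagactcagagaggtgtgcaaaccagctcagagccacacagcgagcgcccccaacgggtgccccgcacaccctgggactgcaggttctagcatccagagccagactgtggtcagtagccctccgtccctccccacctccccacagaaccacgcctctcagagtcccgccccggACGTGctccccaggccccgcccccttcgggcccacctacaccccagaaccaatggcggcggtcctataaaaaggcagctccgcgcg
Dusp5: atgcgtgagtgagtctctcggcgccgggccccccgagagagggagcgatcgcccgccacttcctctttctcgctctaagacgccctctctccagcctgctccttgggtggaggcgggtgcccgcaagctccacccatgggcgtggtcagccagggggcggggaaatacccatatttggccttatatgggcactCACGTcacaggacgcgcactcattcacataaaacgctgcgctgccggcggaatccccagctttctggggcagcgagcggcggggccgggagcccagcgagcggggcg
Creb3l3: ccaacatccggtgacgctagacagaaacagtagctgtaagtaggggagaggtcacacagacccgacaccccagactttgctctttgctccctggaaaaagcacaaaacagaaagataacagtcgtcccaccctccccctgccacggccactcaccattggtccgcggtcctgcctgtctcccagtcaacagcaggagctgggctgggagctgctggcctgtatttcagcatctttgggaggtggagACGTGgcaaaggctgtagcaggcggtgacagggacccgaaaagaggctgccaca
The match begins 36 bases before the start in Slc2a1, 57 before it in Dusp5, and 4 before it in Creb3l3. The Creb3l3 window shown belongs to an internal start. The other window of this gene, at chr10:81098823-81099122 and 5′ of the one shown, held no match. Of the 19 genes past the threshold, 10 had a promoter in the table, with 11 windows. Stc1 and Ndrg1 were not among the 10. Of the 3 genes shown, only Slc2a1 is on the list of hypoxia target genes. On either strand, ACGTG was in 4 of the 9 windows of the genes that decreased (the 3 shown and Gapdh, in which it lies after the start) and in 19.6% of all 32851 windows. The core of the interferon-stimulated response element was in 1 of the 11 windows, that of Cytip, and in 3.44% of all windows. The direct repeat of the vitamin D response element was in 0 of the 11 and in 0.00609% of all windows. A match is a stretch of letters and was not tested as a binding site.

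A few genes of fat and retinol handling decreased. Creb3l3 (chr10:80920141-80934708) encodes CREBH, a transcription factor held in the endoplasmic reticulum that drives genes of lipid metabolism. It was at 42.4 to 216 CPM (median 136) with low starch and at 28.5 to 95.5 CPM (median 41.9) with high starch. The lowest low starch value was that of mouse 5 on 2% RPS and the highest high starch value that of mouse 4 on 10% RPS. The log2 fold change was -1.38 ± 0.28 (adjusted p = 0.0461), or 2.60-fold lower.

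Dgat2 (chr7:98802491-98831991), which carries out the last step of triglyceride synthesis, was at 130 to 279 CPM (median 212) with low starch and 79.9 to 167 CPM (median 122) with high starch. Its log2 fold change was -0.72 ± 0.15 (adjusted p = 0.0387). Among the 22 members of the list of apolipoproteins and fat absorption tested in edgeR, these 2 passed, both lower (0.094% of all tested genes). DESeq2 tested 30 members and called 4 lower (0.469% of all genes), Creb3l3, Dgat2, Mfsd2a, and Apoa4. The filter on low counts kept Apoa4 out of the edgeR test. Of the 22, 8 were lower and 2 higher at an unadjusted p under 0.05, against 7.83% and 7.59% of all genes. Their median log2 fold change was -0.14. Plin2, a coat protein of lipid droplets, did not pass (-0.42 ± 0.10, adjusted p = 0.0605), and neither did Apob, the structural protein of chylomicrons (-0.29 ± 0.09, adjusted p = 0.125). Mfsd2a, a lysophospholipid transporter, did not pass in edgeR (-1.96 ± 0.55, adjusted p = 0.0950) and was called by DESeq2 (-0.89, adjusted p = 0.0439). Its value rested on mouse 1 on 0% RPS, at 25.5 CPM where the other low starch mice lay between 0.811 and 4.39 CPM, and was -0.92 without that mouse.

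In the list of fatty acid oxidation and ketogenesis, 0 of 27 tested members passed the threshold in edgeR, and DESeq2 called 1 lower, Pdk4 (0.469% of all genes). At an unadjusted p under 0.05 it held 12 lower members and 0 higher, against 7.83% and 7.59% of all genes, and 24 of the 27 had a negative sign (median log2 fold change -0.13). Pdk4, the kinase that shuts pyruvate dehydrogenase when fat is burned, came nearest (-1.11 ± 0.26, adjusted p = 0.0556), at 38.6 to 182 CPM with low starch and 25.3 to 73.7 CPM with high starch. Cpt2, of the mitochondrial carnitine shuttle, had a log2 fold change of -0.23 ± 0.07 (adjusted p = 0.0995).

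Rbp2 (chr9:98368121-98391834) encodes the cellular retinol-binding protein of enterocytes. Its level was 23.5 to 73.2 CPM (median 45.8) in the low starch pool and 17.0 to 36.6 CPM (median 22.4) in the high starch pool. Of the low starch mice 7 lay above every high starch mouse, and mouse 4 on 10% RPS was the highest of the high starch mice. The log2 fold change was -0.92 ± 0.18 (adjusted p = 0.0387). The list of retinol binding and retinoic acid metabolism had 25 tested members, and in edgeR Rbp2 alone passed the threshold (0.094% of all tested genes were called lower). DESeq2 called 3 members lower (0.469% of all genes), Rbp2, Dhrs9, and Rbp7. At an unadjusted p under 0.05, 4 were lower and 1 higher, against 7.83% and 7.59% of all genes, and the median log2 fold change was -0.06. Dhrs9, which oxidizes retinol, had a log2 fold change of -0.92 ± 0.21 in edgeR (adjusted p = 0.0523), and Rbp7, another retinol-binding protein, of -0.95 ± 0.27 (adjusted p = 0.0958).

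Cldn4, Dusp5, and Dusp10 were also lower. Cldn4 (chr5:134973973-134975788), a claudin of tight junctions, was at 127 to 321 CPM (median 243) with low starch and at 61.5 to 180 CPM (median 115) with high starch, and the ranges overlapped. Its log2 fold change was -1.01 ± 0.20 (adjusted p = 0.0387), or 2.01-fold lower. It was the 1 member past the threshold in edgeR among 29 tight and gap junction genes, of which DESeq2 called 2 lower and 1 higher, against 0.094% of all genes called lower in edgeR, and 0.469% lower and 0.513% higher in DESeq2. At an unadjusted p under 0.05, 5 were lower and 1 higher, against 7.83% and 7.59% of all genes (median log2 fold change -0.04). The connexin gene Gja5 did not pass in edgeR (1.28 ± 0.34, adjusted p = 0.0789) and was called by DESeq2 (adjusted p = 0.0161). With the level of smooth muscle markers as a covariate its log2 fold change was 0.41 (unadjusted p = 0.232).

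Dusp5 (chr19:53517532-53530862) and Dusp10 (chr1:183745499-183807842) encode phosphatases that switch off MAP kinases. Dusp5 was at 7.16 to 25.7 CPM with low starch and 4.68 to 13.6 CPM with high starch (log2 fold change -0.99 ± 0.20, adjusted p = 0.0387). Dusp10 was at 16.6 to 39.6 CPM and 11.5 to 17.8 CPM (-0.65 ± 0.12, adjusted p = 0.0383), and 9 of the 10 low starch mice lay above every high starch mouse. Spry2, an inhibitor of receptor tyrosine kinase signaling, had an adjusted p of 0.0387 at a fold change under 1.5 (-0.49 ± 0.10). Of 23 tested immediate early genes 0 passed in edgeR and 1, Dusp1, in DESeq2 (0.469% of all genes called lower), while 8 were lower and 0 higher at an unadjusted p under 0.05, against 7.83% and 7.59% of all genes (median log2 fold change -0.28). Among them were Btg2 (-0.57 ± 0.13, adjusted p = 0.0523) and Dusp1 (-0.85 ± 0.20, adjusted p = 0.0568).

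Trim29, Epn3, Arl14, and Zbtb7c were also past the threshold and belonged to none of the lists. Trim29 (chr9:43222085-43247413), a tripartite motif protein, was low in all mice, at 0.837 to 8.33 CPM with low starch and 0.848 to 3.54 CPM with high starch (log2 fold change -1.63 ± 0.33, adjusted p = 0.0387). Its lowest value of all was in a low starch mouse, mouse 5 on 2% RPS. Epn3, an endocytic adaptor, fell from a median of 42.6 to 23.6 CPM (-0.77 ± 0.15, adjusted p = 0.0387). Arl14, a small GTPase, fell from 56.5 to 35.1 CPM (-0.63 ± 0.12, adjusted p = 0.0383), and Zbtb7c, a zinc finger protein, from 34.4 to 21.3 CPM (-0.73 ± 0.13, adjusted p = 0.0383). Below a fold change of 1.5 there were 10 further genes with an adjusted p within 0.05 and a negative sign. The smallest p-values among these were those of Dhx32, a putative RNA helicase (-0.32 ± 0.06), and Plpp5, a lipid phosphatase (-0.35 ± 0.06). The others were Pfkfb4 and Spry2, the mitochondrial creatine kinase gene Ckmt1, Bcas1, the cytochrome P450 gene Cyp2j6, Rflnb, the phosphoglucomutase gene Pgm2, and Rab27a, a GTPase of secretory granules.

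The 5 upregulated genes encode proteins known from smooth muscle, connective tissue, and immune cells, among other places. Actg2 (chr6:83489887-83513551) encodes the gamma actin of enteric smooth muscle. It was at 245 to 658 CPM (median 373) in the low starch pool and at 381 to 1299 CPM (median 893) in the high starch pool. Of the high starch mice 6 lay above every low starch mouse, while mouse 4 on 10% RPS, at 381 CPM, lay close to the low starch median. The log2 fold change was 1.10 ± 0.22 (adjusted p = 0.0387), or 2.15-fold higher. Col12a1 (chr9:79506268-79626135), a collagen that binds to fibrils, was at 11.9 to 24.05 CPM with low starch and 18.1 to 35.8 CPM with high starch (0.67 ± 0.13, adjusted p = 0.0383).

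Cytip (chr2:58019149-58085544) encodes a cytohesin-binding protein of lymphocytes and dendritic cells. Its level was 16.5 to 37.0 CPM with low starch and 28.0 to 48.2 CPM with high starch (0.64 ± 0.13, adjusted p = 0.0387), and 7 high starch mice lay above every low starch mouse. Ly75 (chr2:60122441-60213682), the endocytic receptor DEC-205, was at 10.7 to 27.2 CPM and 18.1 to 38.5 CPM (0.67 ± 0.14, adjusted p = 0.0387). Camk2n1 (chr4:138181407-138187434), an inhibitor of calcium/calmodulin-dependent kinase II, was at 50.6 to 91.6 CPM and 72.3 to 135 CPM (0.61 ± 0.12, adjusted p = 0.0387). H1f2, a linker histone (0.58 ± 0.11), Plpp1, a lipid phosphatase (0.54 ± 0.11), and Itga9, an integrin subunit (0.48 ± 0.10), each had an adjusted p of 0.0387 at a fold change under 1.5. In H1f2, Plpp1, Itga9, Camk2n1, Ly75, Col12a1, and Actg2 the highest low starch value was that of mouse 5 on 2% RPS.

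The smooth muscle markers moved with these results. All 15 were tested, 1 (Actg2) passed the threshold in edgeR, and DESeq2 called 3 higher, against 0.0336% and 0.513% of all genes. Of the 15, 13 were higher at an unadjusted p under 0.05, against 7.59% of all genes, and all 15 had a positive sign (median log2 fold change 0.47). Examples are Cnn1, calponin (0.80 ± 0.19, adjusted p = 0.0591 in edgeR and 0.00377 in DESeq2), and Des, desmin (0.90 ± 0.25, adjusted p = 0.0955). Their summed level was 4494 to 9975 CPM (median 5972) in the low starch mice and 7090 to 15687 CPM (median 9904) in the high starch mice. Among the low starch mice it was highest in mouse 5 on 2% RPS, and among the high starch mice lowest in mouse 4 on 10% RPS. With the level of the 14 markers other than Actg2 as a covariate, a fit added after the data had been seen, 0 genes passed in edgeR. The 19 genes then had adjusted p-values of 0.286 to 0.295 and unadjusted p-values of 8.81e-05 to 0.0154. All kept their direction, and their log2 fold changes were 0.413 to 1.07 times those without the covariate (median 0.769). Stc1 was then at -1.42, Slc2a1 at -0.58, and Actg2 at 0.46. Relative losses larger than in Stc1 and Slc2a1 were also seen in Camk2n1 (0.61 to 0.30), Col12a1 (0.67 to 0.36), and Dusp5 (-0.99 to -0.62). Of the 19 changes, 18 were smaller with the covariate. Of the named genes that did not pass, the log2 fold change also shrank by more than 1.5 times in Des (to 0.11), Cnn1 (0.20), Fbn1 (0.40), Irf7, Mov10, and Gja5. The same held for Apob (-0.09), Pgk1 (-0.11), Dhrs9 (-0.48), Mfsd2a (-1.12), Slc16a3 (-0.31), Pdk4 (-0.68), Abcb1a (-0.32), Plin2 (-0.27), and Ly6g (-1.54). It also held for Plpp1 (0.31), Cyp2j6 (-0.24), and Dhx32 (-0.21), which had an adjusted p within 0.05 at a fold change under 1.5.

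**Figure D3:**
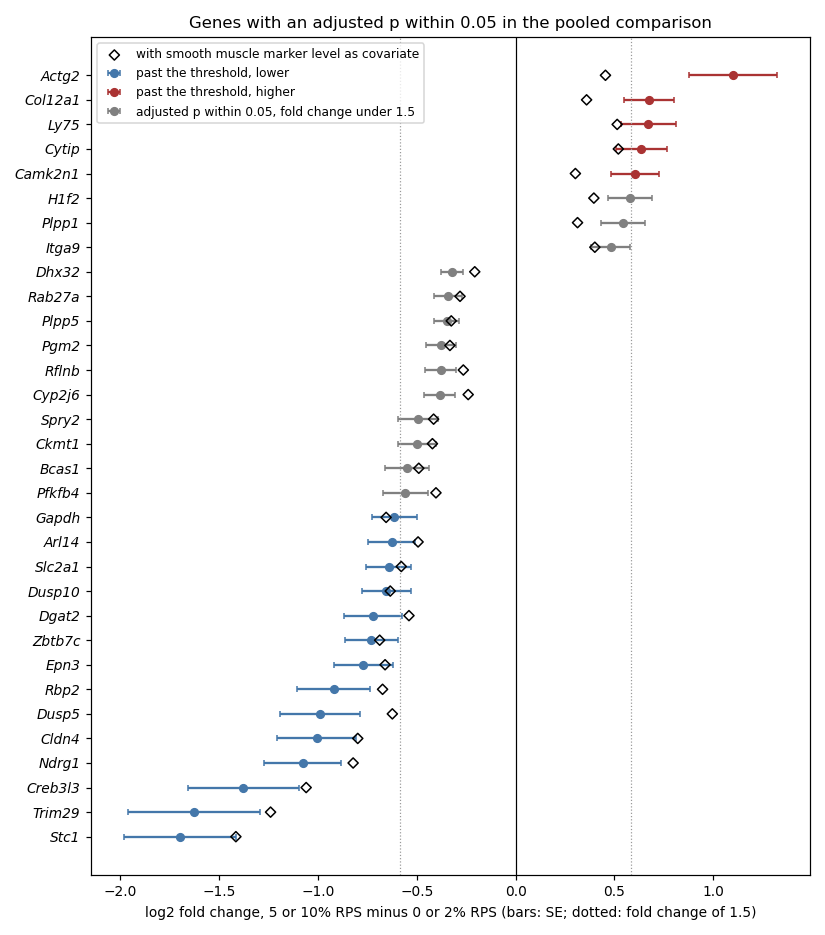
Log2 fold change (x axis) of the 32 genes with an adjusted p within 0.05 (y axis), with its SE, and the same value with the level of smooth muscle markers as a covariate (open diamonds). With the covariate the change was smaller in 31 of the 32 genes, the exception being Gapdh (-0.66 against -0.61).

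Fibroblast and collagen genes had 20 tested members, of which 0 passed in edgeR and 2 in DESeq2, and 14 were higher and 1 lower at an unadjusted p under 0.05 (median log2 fold change 0.31). Of all tested genes 7.59% were higher and 7.83% lower at that p, and DESeq2 called 0.513% higher and 0.469% lower. Fbn1, fibrillin, was the first among them by p (0.77 ± 0.18, adjusted p = 0.0568). Goblet cell markers had a negative median. Of 15 tested, 0 passed in edgeR and 1 in DESeq2, and 8 were lower and 1 higher at an unadjusted p under 0.05 (median log2 fold change -0.37). Zg16, a lectin of the mucus granule, was at -0.57 ± 0.13 (adjusted p = 0.0523), and Muc2, the gel-forming mucin, at -0.50 ± 0.16 (adjusted p = 0.117). The summed goblet cell level was 6877 to 12998 CPM with low starch and 7719 to 12296 CPM with high starch, and was lowest of all in mouse 5 on 2% RPS. Markers of absorptive colonocytes, led by Car1, summed to 41609 to 54531 CPM (median 45339) in the low starch mice and 33288 to 52274 CPM (median 40187) in the high starch mice. Of 17 tested colonocyte markers 4 were higher and 5 lower at an unadjusted p under 0.05, 13 had a negative sign, and the median log2 fold change was -0.15. Markers of the exocrine pancreas and other organs summed to 62.9 to 92.5 CPM over all mice. The part of cell composition in the genes called was not tested beyond the covariate.

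**Figure D4:**
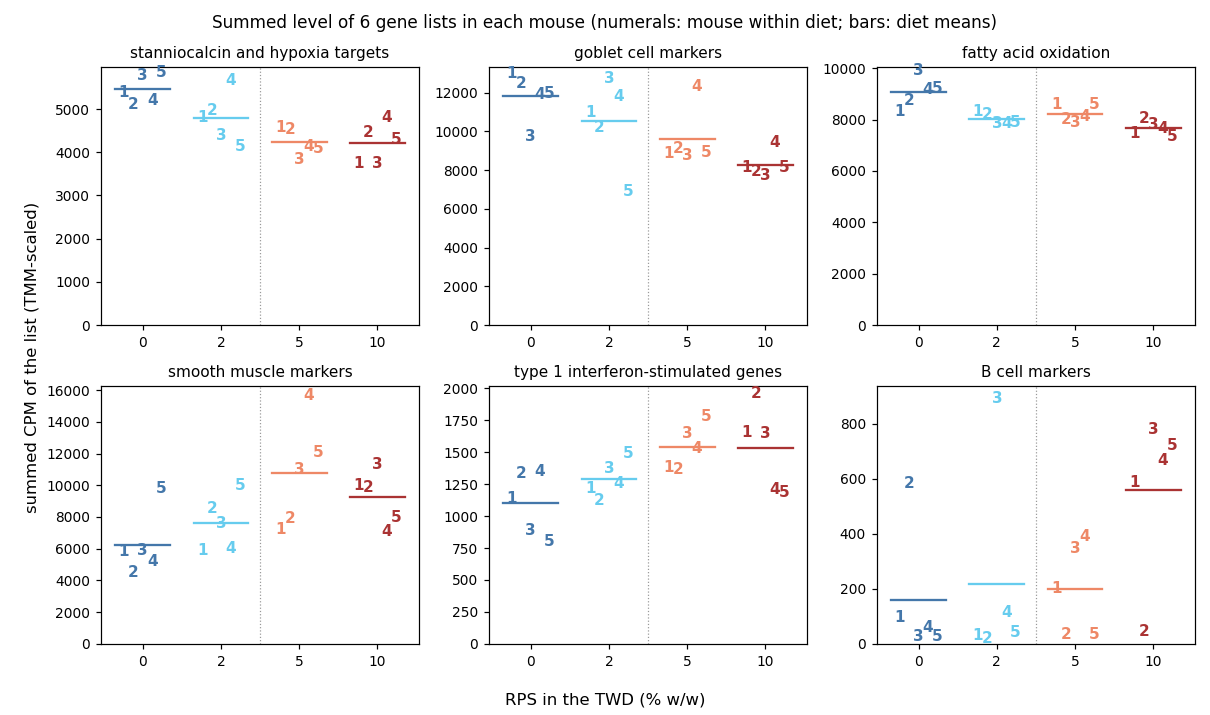
Summed level of 6 gene lists in each mouse (y axis, CPM from 0) by percentage of RPS in the TWD (x axis), with numerals for the mouse within its diet and bars for diet means. Mouse 5 on 2% RPS stood at 9975 CPM of smooth muscle markers and 6877 CPM of goblet cell markers, and mouse 4 on 10% RPS at 7090 and 9410 CPM.

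Lists of interferon-stimulated, antigen presentation, and antimicrobial genes had positive medians, with no member past the threshold in edgeR. Of 45 tested type 1 interferon-stimulated genes, 0 passed in edgeR and 2, Mov10 and Irf7, in DESeq2 (0.513% of all genes called higher), and 22 were higher and 1 lower at an unadjusted p under 0.05, where 7.59% and 7.83% of all genes were. The median log2 fold change was 0.36 and 44 of the 45 had a positive sign. Examples are Mov10 (0.83 ± 0.20, adjusted p = 0.0592) and Irf7, the amplifier of the interferon response, at 76.7 to 195 CPM with low starch and 116 to 303 CPM with high starch (0.75 ± 0.19, adjusted p = 0.0775). With the smooth muscle covariate Irf7 was at 0.39 (unadjusted p = 0.0946) and Mov10 at 0.51 (unadjusted p = 0.0354). Oasl1, a negative regulator of Irf7 translation, had the opposite sign (-0.31 ± 0.10, adjusted p = 0.117). Genes of MHC class I and the immunoproteasome gave 10 higher and 0 lower of 20 (median 0.24), and those of the acute-phase and antimicrobial proteins 9 higher and 2 lower of 17 (median 0.57). Of the latter, Saa1 was at 1.11 ± 0.26 (adjusted p = 0.0556 in edgeR and 0.00497 in DESeq2).

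The oxidases of the epithelium had 8 tested members, 0 past the threshold in edgeR, while DESeq2 called 3 higher, Nos2, Duoxa2, and Duox2. In edgeR 5 were higher at an unadjusted p under 0.05, against 7.59% of all genes, where DESeq2 called 0.513% higher (median log2 fold change 0.72). Nos2, the inducible nitric oxide synthase, was at 0.168 to 2.19 CPM with low starch and 1.496 to 8.67 CPM with high starch (1.73 ± 0.39, adjusted p = 0.0523). Duoxa2, which matures the hydrogen peroxide producing oxidase Duox2, was at 1.58 to 28.3 CPM and 11.3 to 77.1 CPM (1.71 ± 0.46, adjusted p = 0.0840). Duox2 itself was at 1.19 ± 0.37 (adjusted p = 0.126). B cell markers had the highest median of all lists (1.06), yet 0 of 17 were under an unadjusted p of 0.05. Their summed level spread from 19.0 to 894 CPM with low starch and from 32.5 to 781 CPM with high starch. With that level as a covariate, also added after the data had been seen, 24 genes were higher and 10 lower, and 9 of the 19 genes were still called.

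Genes that carry or sense the fermentation products lay on both sides. Of 12 tested transporters and receptors of short-chain fatty acids 0 passed in edgeR and 1, Slc5a8, in DESeq2, with 2 higher and 2 lower at an unadjusted p under 0.05 (median log2 fold change -0.03). Over all tested genes the shares at that p were 7.59% higher and 7.83% lower, and DESeq2 called 0.513% higher and 0.469% lower. Slc5a8, the sodium-coupled monocarboxylate transporter, was at 44.6 to 142 CPM with low starch and 100.4 to 211 CPM with high starch (0.79 ± 0.18, adjusted p = 0.0540 in edgeR and 0.0021 in DESeq2). Slc16a3, a lactate exporter, was at -0.52 ± 0.20 (adjusted p = 0.213). Among 12 genes of bile acid transport and sensing tested in edgeR, 0 passed. At an unadjusted p under 0.05, 7 were lower and 1 higher (median -0.17). DESeq2 tested 16 members and called Slc10a2 higher and Abcb11 lower. The filter on low counts kept Abcb11 out of the edgeR test. Abcb1a, an efflux pump, was at -0.51 ± 0.11 in edgeR (adjusted p = 0.0523). Slc10a2, the apical bile acid transporter, was at 0.67 ± 0.20 (adjusted p = 0.112 in edgeR and 0.0264 in DESeq2).

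**Figure D5:**
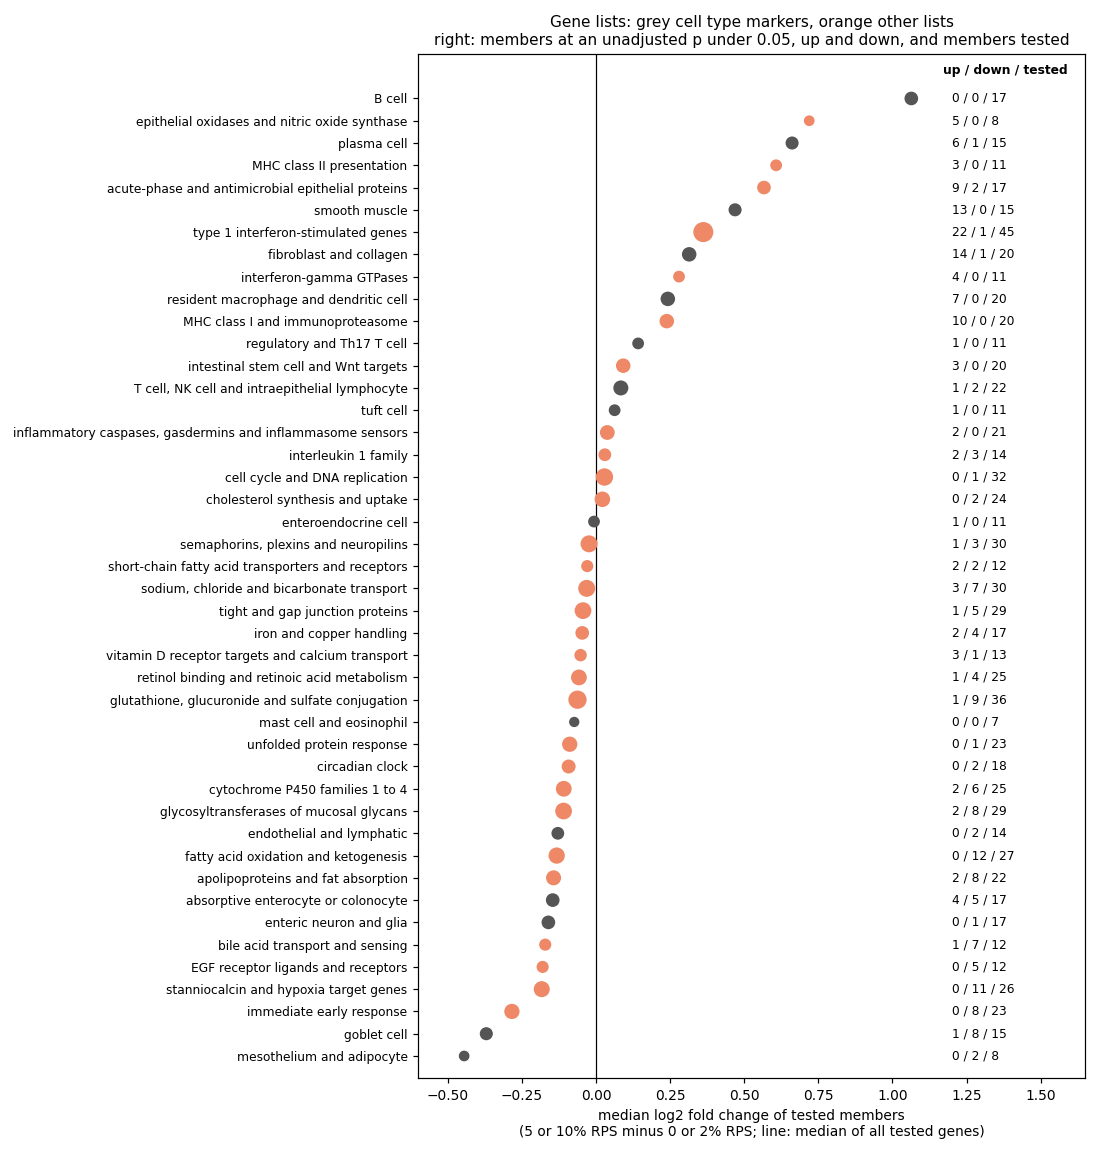
Median log2 fold change (x axis) of the tested members of 44 gene lists with at least 5 tested members (y axis), with the numbers of members at an unadjusted p under 0.05 in each direction; a larger point stands for more members. B cell markers lie highest at 1.06 with 0 of 17 under that p, and smooth muscle markers lie at 0.47 with 13 of 15.

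Whether the doses inside each pool differed was asked in a model with 1 mean per diet. Between 10 and 5% RPS, 0 genes passed in edgeR and 0 in DESeq2, and 402 (2.70%) had an unadjusted p under 0.05. Between 2 and 0% RPS, 0 passed in edgeR and 5 in DESeq2, and 878 (5.89%) had an unadjusted p under 0.05. Across the border of the pools, between 5 and 2% RPS, 0 passed in both tools and 500 (3.36%) had an unadjusted p under 0.05. These steps share mice with the pooled comparison, so their values for its genes are given side by side only. For Stc1 the log2 fold change was -0.96 ± 0.33 from 0 to 2% RPS and -0.26 ± 0.35 from 5 to 10% RPS. For Rbp2 these were -0.75 ± 0.20 and -0.01 ± 0.21, and for Slc2a1 -0.44 ± 0.13 and -0.20 ± 0.13. For Dusp10 they were 0.08 ± 0.18 and 0.00 ± 0.19, and for Actg2 0.56 ± 0.30 and -0.25 ± 0.29. From 2 to 5% RPS the values were -1.02 ± 0.34 for Stc1, -0.49 ± 0.21 for Rbp2, and -0.31 ± 0.13 for Slc2a1. Those of Dusp10 and Actg2 were -0.70 ± 0.18 and 0.97 ± 0.30. In Rbp2 and Slc2a1 the largest of the steps was thus from 0 to 2% RPS, inside the low starch pool.

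A small number of mice lay near the other pool. Among the 32 genes with an adjusted p within 0.05, mouse 5 on 2% RPS was the low starch mouse farthest toward the high starch side in 25, against 12.5% of all tested genes. Mouse 4 on 10% RPS was the high starch mouse farthest toward the low starch side in 19, against 13.8% of all tested genes. These counts describe mice in genes that the comparison had picked and were not tested.

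No difference in depth or RNA measures between the pools passed a test. Total counts were 14967798 to 39822132 in the high starch mice and 20376315 to 42687283 in the low starch mice, and a floor of 3 counts corresponded to 0.0698 to 0.190 CPM. This floor covers counting error only. The share of mitochondrial counts was 10.47% ± 1.84 (SD, n = 10) with high starch and 10.4% ± 1.73 (SD, n = 10) with low starch. Over 5 such measures, the adjusted p of two-sided permutation tests ranged from 0.344 to 0.950, the lowest being that of the TMM scaling factor.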

How the data were processed

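RNA from the cecum of 20 mice, 5 per diet, was measured by RNASeq of stranded poly(A) libraries with single-end reads. The authors removed bases and reads of low quality, mapped the rest to GRCm39 in CLC Genomics Workbench, and deposited raw read counts per gene and mouse for 19887 genes. The annotation, and how reads shared by overlapping or near-identical genes were counted, are not given in the sources used here. Names and coordinates came from GENCODE M39 (GRCm39), in which 19827 identifiers were found.

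Counts were filtered with filterByExpr (minimum count 10, minimum total 15, grouped by pool), scaled by TMM, and tested with edgeR 4.0.16 (robust quasi-likelihood) in R 4.3.3. A model with 1 mean per diet gave the steps between diets. A gene was called at an adjusted p (Benjamini-Hochberg) within 0.05 and a fold change of 1.5 or more. SE was taken from the fold change and the F statistic, and CPM were scaled by TMM. The code was tested on simulated data. DESeq2 1.42.0 and sva 3.50.0 served for alternatives, and scipy 1.17.1 for permutation tests (100000 resamples). The alternatives were other size factors, filters, thresholds and models, a surrogate variable, and each mouse or diet left out.

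The pools and the 46 gene lists were chosen with earlier results of these data known, and counts over a list carry no test. Genes named are the 12 called with the largest fold change in each direction, the 6 with the smallest p in each direction, called list members, and up to 4 other members per list. Gapdh, Arl14, Spry2, Ckmt1, Bcas1, Cyp2j6, Rflnb, Pgm2, and Rab27a were named after their values were seen. Total counts were 14967798 to 42687283 per mouse, and the median tested gene had 553 counts.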

Additional observations from a re-analysis of the deposited data

Results flagged for a closer look

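Samples far from the others in their pool of 10 mice were looked for in 108 groups of values, of which 10 held such a sample, while chance gives about 1 in 20. Mouse 5 on 2% RPS stood apart from the other low starch mice in Bcas1 (5.47 log2 CPM, pool median 6.33), Rab27a (4.85, median 5.41), and Plpp1 (5.42, median 4.83), each on the side of the high starch mice, and in the summed goblet cell markers (12.75 log2 CPM, median 13.54). Mouse 5 on 0% RPS stood apart in its TMM scaling factor (0.916, median 0.987) and in the summed markers of regulatory and Th17 T cells (6.15 log2 CPM, median 6.73). Mouse 4 on 5% RPS stood apart from the other high starch mice in the share of mitochondrial counts (15.4%, median 9.81%), the share of counts in the 50 highest genes (27.1%, median 21.97%), and the summed goblet cell markers (13.59 log2 CPM, median 13.11). Mouse 5 on 5% RPS stood apart in the summed plasma cell markers (11.67 log2 CPM, median 10.99).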

How the results depend on the processing

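The 19 genes kept their direction under all 34 alternatives chosen at the outset and both covariates chosen after seeing the data, but the number called did not hold. Against 5 genes higher and 14 lower, DESeq2's Wald test called 95 and 87, 1 mean per diet 33 and 34, a minimum of 10 counts in every mouse 14 and 24, immunoglobulin segments left out 13 and 23, no fold change threshold 8 and 24, and 1 surrogate variable 10 and 16. The test against a fold change of 1.5 (glmTreat) called 0 and 0, with 126 genes at an unadjusted p under 0.05. Without the mice on 0% RPS the counts were 0 and 0 (674 at that p), without those on 2% RPS 155 and 114, without those on 5% RPS 0 and 1, and without those on 10% RPS 0 and 0 (1210 at that p). Leaving out 1 mouse at a time gave 0 to 107 higher and 0 to 75 lower. With the smooth muscle level as a covariate the counts were 0 and 0 (2143 at that p), and with the B cell level 24 and 10. DESeq2's size factors, no filter, and the model without robust empirical Bayes left both counts within 1.5 times. Between 2 and 0% RPS DESeq2 called 5 genes and edgeR 0, and the other steps gave 0 under each alternative run. Where counts changed, the cause was not tested. No paired analysis was possible because the labels number the mice without matching them across diets.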

Other observations

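Immunoglobulin gene segments were mostly higher with more starch, with no segment past the threshold in edgeR and 10 called higher by DESeq2. Of 107 tested, 86 had a positive sign, 34 were higher and 1 lower at an unadjusted p under 0.05, and the median log2 fold change was 0.76. Of all tested genes 7.59% were higher and 7.83% lower at that p, and DESeq2 called 0.513% higher. Plasma cell markers gave 6 higher and 1 lower of 15 at that p, with a summed level of 974 to 2562 CPM with low starch and 1674 to 3252 CPM with high starch. Resident macrophage and dendritic cell markers gave 7 higher and 0 lower of 20 (median 0.24), and markers of T cells, NK cells, and intraepithelial lymphocytes 1 higher and 2 lower of 22 (median 0.08).

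Glycosyltransferases of mucosal glycans gave 8 lower and 2 higher of 29 (median log2 fold change -0.11), and the enzymes of glutathione, glucuronide, and sulfate conjugation 9 lower and 1 higher of 36 (median -0.06). Of 12 ligands, receptors, and regulators of the EGF receptor family, 5 were lower and 0 higher (median -0.18). These included Tgfa, a ligand of the EGF receptor (-0.24 ± 0.06, adjusted p = 0.0733), and Errfi1, a feedback inhibitor of that receptor (-0.55 ± 0.15, adjusted p = 0.0833). Genes of the cell cycle (1 lower and 0 higher of 32), cholesterol synthesis (2 lower and 0 higher of 24), the unfolded protein response (1 lower and 0 higher of 23), and the circadian clock (2 lower and 0 higher of 18) had no member higher at that p, where 7.83% of all tested genes were lower and 7.59% higher. The largest drop of any tested gene was in Ly6g, a neutrophil surface gene, at 0.116 to 16.3 CPM with low starch and 0 to 1.70 CPM with high starch, and it did not pass the threshold in edgeR (-2.92 ± 0.72, adjusted p = 0.0670), while DESeq2 called it (adjusted p = 0.00507). Its log2 fold change was -2.30 without mouse 1 on 0% RPS, and -1.54 with the smooth muscle covariate. The other 2 tested neutrophil markers had a positive sign (median of the 3 0.31), and the summed level of the 11 markers on the list was 5.06 to 23.6 CPM (median 9.75) with low starch and 6.03 to 19.2 CPM (median 8.78) with high starch.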
